A study of Mus musculus with 48 samples.

Results

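The data described here are 6 RNA libraries from B16-D5 melanomas of iNOS KO mice at day 7 of therapy, 3 from mice treated with anti-PD-1 and 3 from mice treated with control IgG. They are 6 of the 48 samples of the series, and they were chosen by the sample titles, which give the experiment, the host genotype and the treatment. The B16-D5 cells, a subclone of the B16 mouse melanoma, were placed under the skin of the flank on day -8 in C57BL/6J mice or in mice that lack the inducible nitric oxide synthase, iNOS, encoded by Nos2. On arrival the mice were 4 weeks old, and 2 weeks of housing followed. Each antibody was given at 250 µg in 200 µL of PBS on days 0 and 3. The untreated iNOS KO tumors (3) and the WT tumors of the same experiment (3 untreated, 3 IgG, 3 anti-PD-1) served as the other groups of the fit. The titles carry no day, and day 7 is taken from the study's text. The timepoint field conflicts with it, reading D1 for the 3 anti-PD-1 libraries and IgG replicate 3, and 0hrs for IgG replicates 1 and 2. The other label fields conflict with the titles: the genotype field reads WT in each of the 6 libraries and so matches 0 titles, and the treatment field matches 2 of 6. Each library is 1 tumor of 1 mouse. The deletion is in the host only, since the injected melanoma cells did not come from knockout mice, and a count per gene cannot separate RNA of the tumor cells from RNA of the host.

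Anti-PD-1 blocks the inhibitory receptor PD-1 on T cells, so that T cells in a tumor can be reactivated. Activated T cells and NK cells secrete interferon-γ (IFN-γ), which signals through JAK kinases and switches on IRF1, guanylate-binding proteins, the chemokines Cxcl9 and Cxcl10, and the genes of antigen processing and presentation. Type I interferons act on a partly shared set of genes, and iNOS itself is a classical interferon-inducible gene of macrophages, which makes nitric oxide from arginine. The comparison asks what anti-PD-1 did to the tumor transcriptome where the host could not make iNOS.

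The promoters of 4 interferon genes are shown to set their sequence beside the levels given below, since they hold, or lack, the 2 base patterns through which interferon factors are known to bind. The sequences are RefSeq promoter windows on GRCm38.p6, 250 bases up to the start of transcription, 5′ to 3′ on the strand of the gene. Capitals mark each match, on either strand, to GAAANNGAAA, the repeat of the interferon-stimulated response element, or to TTCNNNGAA, the core of the IFN-γ-activated site, which reads the same on both strands. The windows are chr5:92328080-92328329 (minus strand) for Cxcl9, chr3:142620413-142620662 (plus strand) for Gbp2, chr11:49064213-49064462 (minus strand) for Tgtp2 and chr11:53769764-53770013 (plus strand) for Irf1.
Cxcl9: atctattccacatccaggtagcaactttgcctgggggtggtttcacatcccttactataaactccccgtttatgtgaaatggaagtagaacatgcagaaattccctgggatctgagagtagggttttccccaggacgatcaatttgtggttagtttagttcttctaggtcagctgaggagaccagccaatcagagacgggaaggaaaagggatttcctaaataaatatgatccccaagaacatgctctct
Gbp2: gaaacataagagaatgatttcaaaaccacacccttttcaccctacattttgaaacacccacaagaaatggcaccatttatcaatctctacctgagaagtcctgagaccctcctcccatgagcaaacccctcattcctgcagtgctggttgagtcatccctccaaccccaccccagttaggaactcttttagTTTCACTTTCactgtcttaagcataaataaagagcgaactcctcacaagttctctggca
Tgtp2: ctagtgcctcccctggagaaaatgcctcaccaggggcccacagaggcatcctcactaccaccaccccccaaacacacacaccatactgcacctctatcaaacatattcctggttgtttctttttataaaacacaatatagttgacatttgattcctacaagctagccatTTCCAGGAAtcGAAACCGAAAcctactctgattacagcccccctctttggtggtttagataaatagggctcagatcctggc
Irf1: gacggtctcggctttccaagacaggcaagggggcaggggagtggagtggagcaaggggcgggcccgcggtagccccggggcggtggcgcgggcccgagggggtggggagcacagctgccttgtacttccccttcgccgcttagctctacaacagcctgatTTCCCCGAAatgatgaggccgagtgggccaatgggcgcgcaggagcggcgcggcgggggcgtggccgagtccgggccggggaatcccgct
The Gbp2 window holds GAAANNGAAA on the opposite strand at bases -59 to -50 from the RefSeq start, which lies 61 bases from the start in the annotation of the files. The Tgtp2 window holds TTCNNNGAA at -81 to -73 and GAAANNGAAA at -70 to -61, and the Irf1 window holds TTCNNNGAA at -90 to -82. No match of either pattern lies in the Cxcl9 window, and other patterns were not searched for. Of the 28 IFN-γ response genes listed, 12 had a window within 100 bases of their annotated start, and 7 of these 12 windows (58.3%) held GAAANNGAAA, against 978 of all 32851 windows (2.98%). TTCNNNGAA was found in 4 of the 12 windows (33.3%) and in 2306 of all windows (7.02%). The matches are a description of the sequence only.

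The 6 libraries held between 31913805 and 40959309 counts on genes. Mitochondrial genes took 4.67, 5.15 and 7.25% of each anti-PD-1 library and 7.18, 7.18 and 10.4% of each IgG library. Genes of olfactory, vomeronasal and taste receptors, which a melanoma is not known to use, made up 13.6 to 41.7 CPM (reads of a gene scaled to a common library size) in the 6 libraries. In 3 other libraries of the fit, WT anti-PD-1 replicates 3 and 4 and untreated iNOS KO replicate 1, they made up 3903, 1374 and 973 CPM. Markers of the melanocyte lineage were abundant in every tumor, with Tyrp1 between 4282 and 5142 CPM. The leukocyte marker Ptprc, which encodes CD45, was present throughout, at 11.1 to 41.2 CPM. Over the genes with a mean of at least 1 CPM, the correlation of log2 CPM between libraries was 0.958 to 0.978 within the anti-PD-1 group, 0.977 to 0.983 within the IgG group and 0.948 to 0.985 between the groups.

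Nos2 (chr11:78920787-78960254 on GRCm38, plus strand) was still counted in every knockout tumor. In the anti-PD-1 tumors it stood at 5.40, 1.15 and 1.3 CPM, and in the IgG tumors at 2.47, 5.92 and 5.83 CPM. The untreated knockout tumors had 4.21, 2.41 and 4.98 CPM, and the WT tumors of the experiment ranged from 1.40 to 7.28 CPM over their 3 groups. Levels in knockout and WT tumors therefore overlapped, and Nos2 counts over the whole gene gave no check of the host genotype. Between the antibodies the values also overlapped, with a log2 fold change of −0.86 (SE 0.579, 95% interval −2.06 to 0.35, unadjusted p = 0.155 and adjusted p = 1 by edgeR's quasi-likelihood test), and −0.50 without anti-PD-1 replicate 2. The difference of the anti-PD-1 effect on Nos2, knockout minus WT, was −1.74 on the log2 scale (SE 0.822, adjusted p = 0.67 in the same fit). Of the 13 genes of nitric oxide and arginine metabolism tested, Nos2 among them, 0 had an unadjusted p under 0.05, and the median log2 fold change was 0.05. Arg1, the arginase that competes with iNOS for arginine, was at 13.4, 6.53 and 10.3 CPM after anti-PD-1 and at 1.82, 11.9 and 13.8 CPM after IgG. Ass1, which rebuilds arginine from citrulline, ranged from 45.4 to 71.1 CPM over the 6 tumors with no separation of the groups. Arg2 had 0 counts in all 6.

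Across all genes, no gene passed the threshold between anti-PD-1 and IgG tumors of iNOS KO mice. Of 30837 genes tested with edgeR's quasi-likelihood test, 0 had an adjusted p under 0.05 (0%), and the smallest adjusted p was 1. At an unadjusted p under 0.05, anti-PD-1 tumors had higher values in 262 genes (0.85% of those tested) and lower ones in 337 (1.09%). With the sensory receptor level as a covariate, these were 845 higher and 688 lower, so that the balance turned. DESeq2's Wald test called 22 genes, 7 higher and 15 lower, among them Krt25, a keratin of the hair root, which had 0, 0 and 2.96 CPM after anti-PD-1 and 0, 0 and 0 CPM after IgG. With no filter on low counts edgeR called 78 genes, 22 higher and 56 lower. The smallest adjusted p in that fit, 2.21e-45, was that of Tchh, a hair root gene high in 1 anti-PD-1 tumor only. The lower calls included the skin genes Krt10, Dsp, Lor and Krt5, and also Cxcl9, Iigp1, Tgtp1, Gbp2 and Zbp1. The 3 values of each group did not overlap in 1023 genes with all anti-PD-1 tumors higher (3.32%) and in 1163 genes with all anti-PD-1 tumors lower (3.77%). Among genes with a mean of at least 1 CPM these shares were 4.85% and 4.98%. Over the 14734 genes with a mean of at least 1 CPM, log2 fold changes ran from −0.574 at the lowest 5% to 0.481 at the highest 5%, with a median of 0.01 and a median SE of 0.229. Of these genes 52.3% had a log2 fold change above 0 and 47.7% had one below 0.

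**Figure D1:**
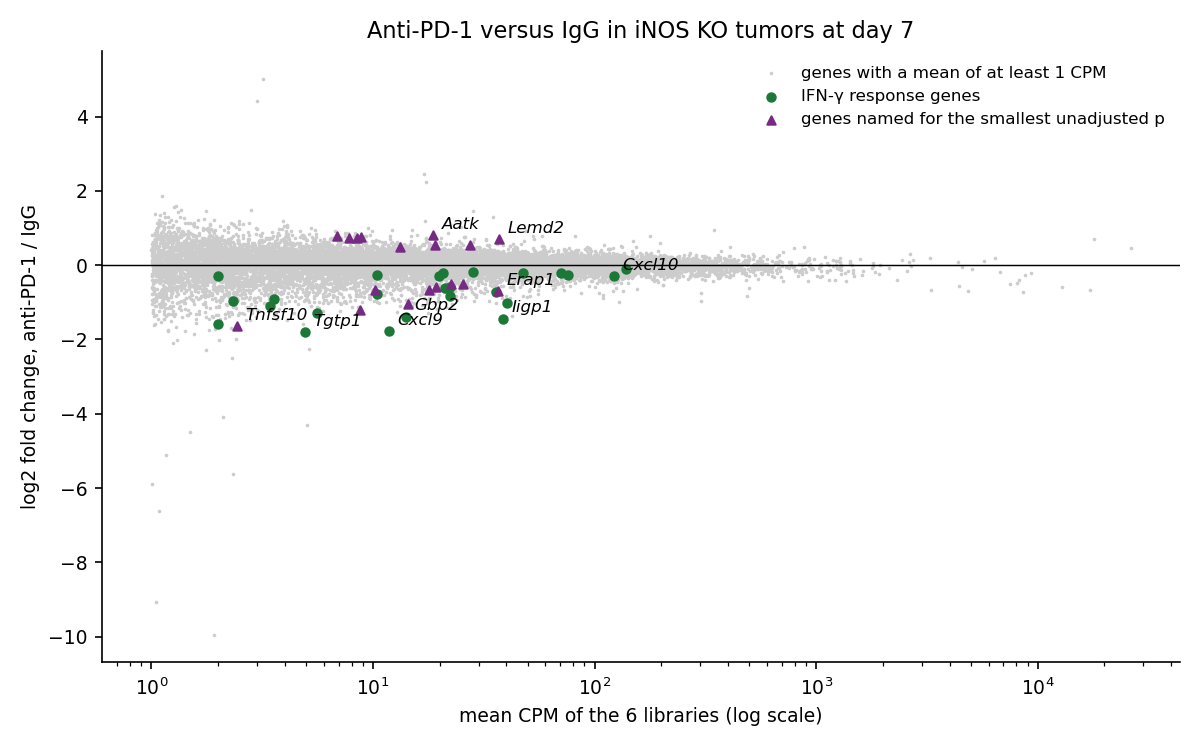
Each point is 1 gene, with its mean CPM over the 6 tumors on the x axis (log scale) and its log2 fold change, anti-PD-1 over IgG, on the y axis. Green circles are the 25 IFN-γ response genes with a mean of at least 1 CPM and purple triangles are 18 genes with the smallest unadjusted p and no overlap between the groups; most green circles lie below 0, with Cxcl9 at −1.77.

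Most genes of the IFN-γ response had lower values after anti-PD-1 than after IgG in knockout tumors, and none passed the adjusted threshold. Of 28 genes tested, 27 had a log2 fold change below 0, beside 47.7% of all genes with at least 1 CPM. An unadjusted p under 0.05 was found in 5, all lower, beside 1.09% of all genes tested. The median was −0.75, beside 0.01 over the genes with at least 1 CPM. The 3 most abundant members had smaller differences than the median of the list. Psme1, a proteasome activator, had a log2 fold change of −0.11, Cxcl10, a chemokine for T cells, −0.30, and Irgm1, an interferon-inducible GTPase, −0.26. Over all genes with at least 1 CPM the lower quartile was −0.14.

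Cxcl9 (chr5:92321347-92328079), which draws T cells through CXCR3, stood at 3.21, 8.21 and 4.72 CPM after anti-PD-1 and at 19.7, 6.48 and 28.9 CPM after IgG. Its highest anti-PD-1 tumor lay above its lowest IgG tumor, and the log2 fold change was −1.77 (SE 0.591, 95% interval −3.00 to −0.54, unadjusted p = 0.0071, adjusted p = 1 in edgeR). Gbp2 (chr3:142620602-142638008), a guanylate-binding protein that attacks membranes around intracellular microbes, had 7.10, 10.1 and 6.14 CPM after anti-PD-1 and 20.9, 10.5 and 29.6 CPM after IgG. The groups did not overlap, and the log2 fold change was −1.39 (SE 0.576). Iigp1, an immunity-related GTPase, had 15.3, 23.5 and 23.6 CPM after anti-PD-1 and 39.3, 26.2 and 104 CPM after IgG. Here too the groups were apart, at a log2 fold change of −1.44 (SE 0.575), and the third IgG tumor stood far above the others. Tgtp1 and Gbp6, also interferon-inducible GTPases, had log2 fold changes of −1.80 (SE 0.790) and −1.09 (SE 0.494), and their groups overlapped. Tgtp1 has a near-identical neighbour, Tgtp2, with which it may share reads, and Tgtp2 had 15.1, 18.2 and 15.1 CPM after anti-PD-1 and 22.5, 10.2 and 53.1 CPM after IgG.

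A single IgG tumor held most of the high values. IgG replicate 3 was the highest of the 6 libraries in 23 of the 28 IFN-γ response genes, while among all genes with at least 1 CPM it was the highest in 16.5%. Without this library the median of the list was −0.16, Tgtp1 stood at −0.62, Gbp6 at −0.39, Cxcl10 at −0.12, Iigp1 at −0.65, Gbp2 at −1.01 and Cxcl9 at −1.28. On the scale log2(CPM + 0.5) the list had means of 3.10, 3.13 and 3.23 after anti-PD-1 and 3.72, 3.16 and 4.34 after IgG. So IgG replicate 2 lay among the anti-PD-1 tumors and the other IgG tumors lay above them. IgG replicate 3 also had the highest share of mitochondrial counts, and the part of that in the values was not tested.

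**Figure D2:**
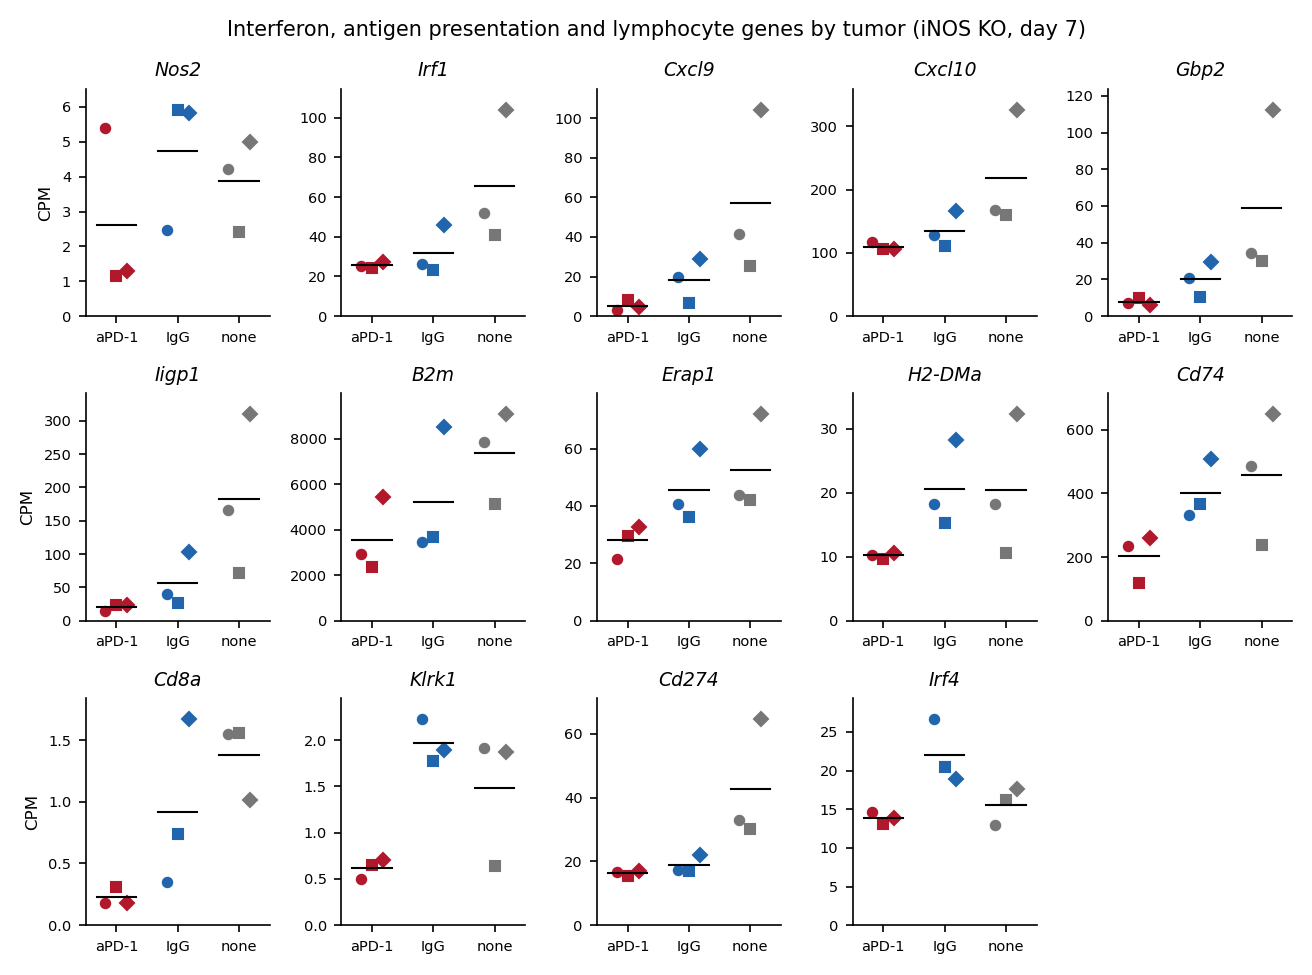
CPM of 14 genes in each of the 9 iNOS KO tumors at day 7, by treatment (aPD-1, anti-PD-1; none, untreated), with 1 marker per tumor (circle, square and diamond for the replicates of a group in order of number) and a bar at the group mean. In most panels the 3 anti-PD-1 tumors lie close together and low, and the diamond of IgG replicate 3 is the highest IgG value, as for Iigp1 at 104 CPM.

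Genes upstream in the interferon pathway had a median nearer to 0. Irf1, the IFN-γ-induced transcription factor with the TTCNNNGAA match shown above, was at 25.1, 24.5 and 27.3 CPM after anti-PD-1 and at 26.5, 23.5 and 46.1 CPM after IgG. Its difference rested on the third IgG tumor, with a log2 fold change of −0.32 (SE 0.322) that became 0.05 without that library. Irf3, which relays signals from nucleic acid sensors, ranged from 32.2 to 41 CPM in all 6 tumors, with a log2 fold change of −0.03 (SE 0.161). Irf7, the amplifier of the type I interferon response, was at 25.9, 9.61 and 24 CPM after anti-PD-1 and at 32.5, 26.9 and 27.1 CPM after IgG, a log2 fold change of −0.54 (SE 0.490). The groups did not overlap, and the second anti-PD-1 tumor was far below the rest. Without it the log2 fold change was −0.20. Irf4, a factor of lymphocytes and of melanocytes, was lower in each anti-PD-1 tumor, at 14.6, 13.1 and 13.8 CPM against 26.7, 20.5 and 18.9 CPM, with a log2 fold change of −0.67 (SE 0.231, unadjusted p = 0.00886, adjusted p = 1 in edgeR). Of the 22 interferons, receptors, JAKs, STATs and IRFs tested, 21 had a log2 fold change below 0. Among all genes with at least 1 CPM the share was 47.7%. The list median was −0.19 (−0.08 without IgG replicate 2). Irf4 was the 1 member with an unadjusted p under 0.05, where 1.09% of all genes tested were lower.

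Transcripts of the interferons were at the edge of detection. Ifng had 0, 0.0622 and 0 CPM after anti-PD-1 and 0, 0.102 and 0.378 CPM after IgG, so that it was close to the limit of 3 counts, about 0.08 CPM, in most libraries. Ifnb1 and Ifna4 did not pass the filter on low counts and were not tested. Of the 40 type I interferon effector genes, 34 had a log2 fold change below 0, with a median of −0.22. Among all genes with at least 1 CPM the share below 0 was 47.7%. An unadjusted p under 0.05 was found in 2, both lower, beside 1.09% of all genes tested. The median was −0.10 without IgG replicate 3, the highest library in 22 of the 40, and −0.14 without anti-PD-1 replicate 2. The genes under 0.05 were Zbp1, a sensor of Z-form nucleic acids, with 12.1, 8.77 and 14.1 CPM after anti-PD-1 and 25.6, 14.8 and 30.1 CPM after IgG, and Ifi44, with 5.90, 4.45 and 8.14 CPM against 9.52, 11.5 and 11.6 CPM. Neither pair of groups overlapped, and the log2 fold changes were −1.01 (SE 0.480) and −0.82 (SE 0.389). Xaf1, a pro-apoptotic interferon-induced gene, went the other way without overlap, at 55.8, 48.6 and 62.4 CPM after anti-PD-1 and 35.4, 29.5 and 47 CPM after IgG (log2 fold change 0.58, unadjusted p = 0.0944, adjusted p = 1 in edgeR). The most abundant effector, the tetherin gene Bst2, had a log2 fold change of −0.06.

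Antigen presentation genes followed the same order. All 11 MHC class II genes tested had a log2 fold change below 0, with a median of −0.63. Among all genes with at least 1 CPM the share below 0 was 47.7%. H2-DMa (chr17:34119541-34139101), which loads peptides onto class II molecules, had 10.3, 9.68 and 10.6 CPM after anti-PD-1 and 18.3, 15.2 and 28.2 CPM after IgG. The groups lay clearly apart, with a log2 fold change of −1.01 (SE 0.418, unadjusted p = 0.0253, adjusted p = 1 in edgeR). Cd74, the invariant chain, had 236, 119 and 259 CPM against 333, 366 and 507 CPM, and Ciita, the master regulator of class II genes, had 5.43, 6.04 and 5.34 CPM against 9.96, 6.25 and 14.1 CPM. Both were lower in all 3 anti-PD-1 tumors, at log2 fold changes of −0.97 (SE 0.599) and −0.85 (SE 0.499), the latter −0.53 without IgG replicate 3. The class II list had means of log2(CPM + 0.5) of 3.46, 2.94 and 3.54 after anti-PD-1 and 3.85, 3.69 and 4.21 after IgG, without overlap. Anti-PD-1 replicate 2 was the lowest library in 7 of the 11 genes and IgG replicate 3 was the highest in 8.

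In the MHC class I pathway 14 of 15 genes tested had a log2 fold change below 0. Among all genes with at least 1 CPM the share was 47.7%. The list median was −0.34, and −0.05 without IgG replicate 3. B2m, the shared light chain of class I molecules, was at 2936, 2346 and 5414 CPM after anti-PD-1 and at 3474, 3677 and 8515 CPM after IgG. The groups overlapped, and its log2 fold change of −0.55 (SE 0.4) was 0.01 without IgG replicate 3. Erap1 (chr13:74639568-74693201), the aminopeptidase that trims peptides in the endoplasmic reticulum, was at 21.6, 29.7 and 32.6 CPM against 40.6, 36.2 and 59.9 CPM. These groups did not overlap, and the log2 fold change was −0.70 (SE 0.241, unadjusted p = 0.00849, adjusted p = 1 in edgeR), or −0.45 without IgG replicate 3. Calr, the chaperone calreticulin, was at 1132 to 1477 CPM over the 6 tumors.

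Most T cell genes had lower values after anti-PD-1, at low levels in both groups. In bulk tumor RNA, fewer cells of a type and less RNA per cell cannot be told apart. Of 20 T cell genes tested, 4 had a mean of at least 1 CPM. A log2 fold change below 0 was found in 15, beside 47.7% of all genes with at least 1 CPM. An unadjusted p under 0.05 was found in 4, all lower, beside 1.09% of all genes tested. The list median was −0.74, and −0.53 without IgG replicate 3. The T cell list means overlapped between the groups. Cd8a (chr6:71373427-71379173), the CD8 α chain of cytotoxic T cells, had 0.183, 0.311 and 0.181 CPM after anti-PD-1 and 0.353, 0.737 and 1.67 CPM after IgG. These are 7, 10 and 7 counts against 12, 29 and 62 counts. The groups did not overlap, with a log2 fold change of −2.02 (SE 0.976, unadjusted p = 0.0497, adjusted p = 1 in edgeR) that was −1.26 without IgG replicate 3. Cd3e, part of the T cell receptor complex, had 0.704, 0.560 and 1.84 CPM against 1.26, 2.06 and 4.91 CPM and did overlap. Not every T cell gene followed this order, and Lck, the kinase of the T cell receptor, had a log2 fold change of 0.99 (SE 0.723). Of 15 genes of B cells and plasma cells tested, 8 had a log2 fold change above 0 and 7 below, with a median of 0.02, and 0 had an unadjusted p under 0.05. Cd79a, a chain of the B cell receptor complex, had 7.07, 7.65 and 7.29 CPM after anti-PD-1 and 6.58, 8.52 and 6.02 CPM after IgG.

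Of 20 genes of cytotoxic effectors and NK cells tested, 18 had a log2 fold change below 0, with a median of −0.91. Only 3 had a mean of at least 1 CPM, and among all genes at that level 47.7% were below 0. The lowest list mean of the IgG tumors lay above the highest of the anti-PD-1 tumors. Klrk1 (chr6:129610323-129623864), which encodes the activating receptor NKG2D, had 0.496, 0.653 and 0.700 CPM after anti-PD-1 and 2.23, 1.78 and 1.89 CPM after IgG. The IgG tumors were close to each other and all above the anti-PD-1 tumors, at a log2 fold change of −1.67 (SE 0.672, unadjusted p = 0.0216, adjusted p = 1 in edgeR). Ccl5, a chemokine made by activated T and NK cells, had 3.00, 2.99 and 4.43 CPM against 7.02, 4.93 and 8.07 CPM, again without overlap, with a log2 fold change of −0.94 (SE 0.465). Gzmb, the granule protease granzyme B, stayed at or under 1.27 CPM in all 6 tumors, and Gzmk had 0 counts in each of them. Of 13 dendritic cell genes 6 had a log2 fold change above 0 and 7 below, with a median of −0.08. Among them Xcr1 of cross-presenting dendritic cells was lower in each anti-PD-1 tumor and Siglech of plasmacytoid dendritic cells was higher, both at 1.59 CPM or less, with log2 fold changes of −3.11 (SE 1.02) and 2.48 (SE 1.02).

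Of 15 genes of the PD-1 axis and other checkpoints, none had an unadjusted p under 0.05. Cd274, which encodes PD-L1 and is inducible by IFN-γ, was at 16.7, 15.5 and 16.9 CPM after anti-PD-1 and at 17.3, 17.1 and 22.1 CPM after IgG. The groups were just apart, and the log2 fold change was −0.20 (SE 0.271, 95% interval −0.77 to 0.37) and was −0.06 without IgG replicate 3. Pdcd1, the PD-1 gene, had 0.183, 0 and 0 CPM against 0.118, 0 and 0 CPM.

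Genes of myeloid and stromal cells were lowest in anti-PD-1 replicate 2. All 12 leukocyte genes tested had a log2 fold change below 0 (median −0.50), beside 47.7% of all genes with at least 1 CPM. Anti-PD-1 replicate 2 was the lowest of the 6 libraries in all 12. It was also the lowest in 17 of 18 genes of macrophages and monocytes and in 15 of 18 genes of fibroblasts and pericytes, against 25.7% of all genes with at least 1 CPM. Lyz2, the lysozyme of macrophages, was at 91.4, 9.71 and 87 CPM after anti-PD-1 and at 52.4, 122 and 82.8 CPM after IgG. The other anti-PD-1 tumors lay within the IgG range. Col1a1, the main fibrillar collagen, was at 1915, 415 and 1164 CPM against 1099, 1804 and 1810 CPM, with the same outlying tumor. Without this library the medians were −0.05 for macrophages, −0.22 for leukocytes and 0.06 for fibroblasts, beside −0.45, −0.50 and −0.29 with it. The median of the MHC class II list was −0.36 and that of the cytotoxic and NK list −0.83 without it. Whether the lower share of leukocyte RNA in that tumor bears on its antigen presentation values was not tested.

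**Figure D3:**
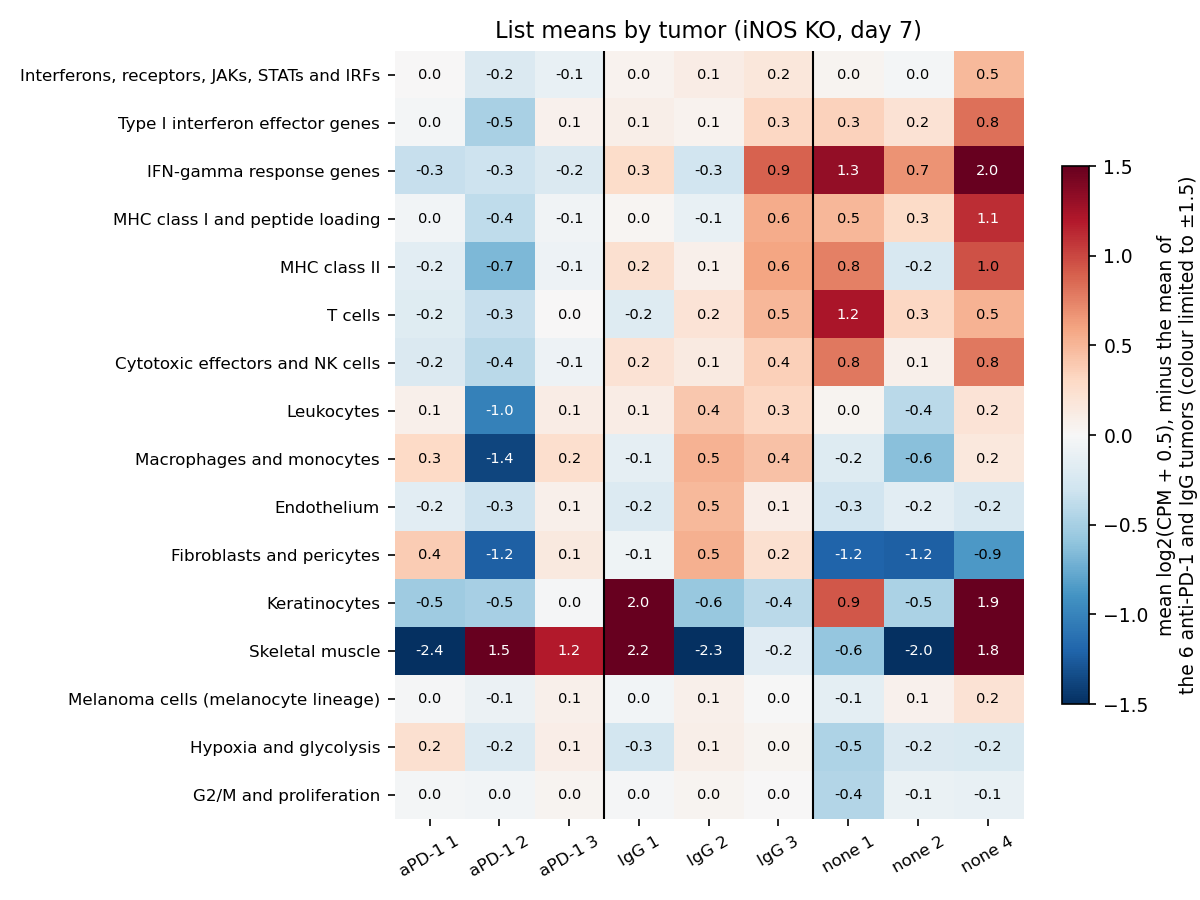
Mean log2(CPM + 0.5) of 16 gene lists (rows) in the 9 iNOS KO tumors (columns; aPD-1, anti-PD-1; none, untreated), each minus the mean of the 6 anti-PD-1 and IgG tumors, with the colour limited at 1.5. The list of IFN-γ response genes is high in IgG replicate 3 and in all 3 untreated tumors, and the macrophage and fibroblast lists are low in anti-PD-1 replicate 2.

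The lists of melanocyte lineage, G2/M, DNA replication and hypoxia genes had medians between −0.03 and 0.12. For the 18 melanocyte lineage genes the median was 0.04 and none had an unadjusted p under 0.05. Tyrp1 and Pmel, both of pigment synthesis, had log2 fold changes of −0.04 (SE 0.283) and −0.03 (SE 0.261). Mitf, the master regulator of melanocytes, was at 561, 636 and 653 CPM after anti-PD-1 and at 782, 745 and 792 CPM after IgG, without overlap, at a log2 fold change of −0.33 (SE 0.2). The 20 genes of G2/M and proliferation had a median of −0.03 and the 18 genes of DNA replication one of 0.03, with E2f1, a transcription factor of S-phase entry, at an unadjusted p under 0.05. E2f1 stood at 46.5, 59.1 and 45.9 CPM after anti-PD-1 and at 37.9, 34.9 and 38.3 CPM after IgG. The groups were apart and the log2 fold change was 0.45 (SE 0.201). Of 23 hypoxia and glycolysis genes 18 had a log2 fold change above 0, beside 52.3% of all genes with at least 1 CPM. Their median was 0.12. It was 0.02 without anti-PD-1 replicate 1, the highest library in 12 of the 23, and also 0.02 without IgG replicate 1. Slc16a3, the lactate exporter MCT4, was at 140.3, 100.0 and 101 CPM against 86.5, 95.1 and 79.3 CPM, a log2 fold change of 0.39 (SE 0.235) that was 0.22 without anti-PD-1 replicate 1.

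**Figure D4:**
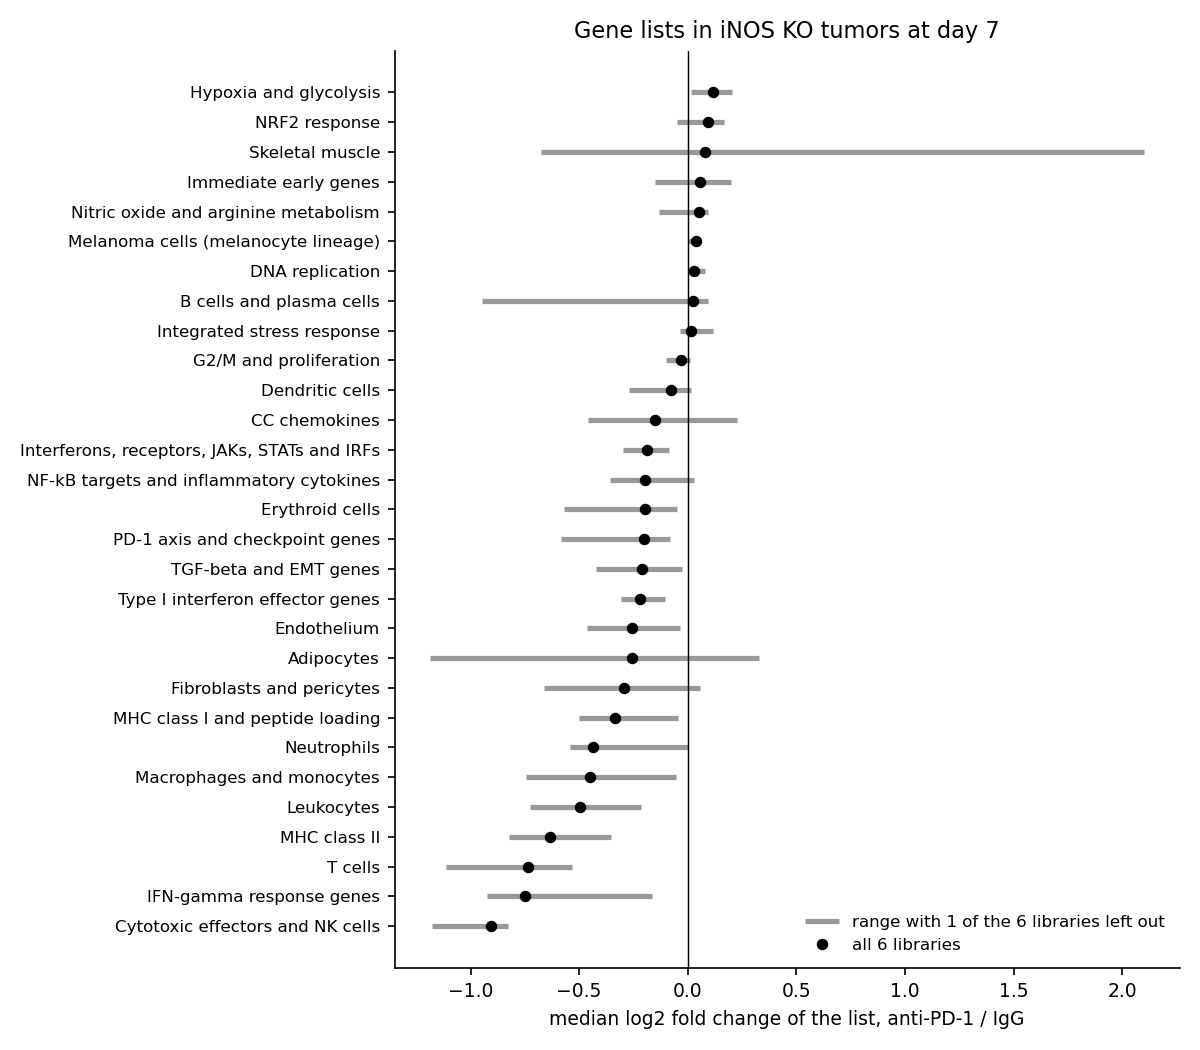
Median log2 fold change of each gene list, anti-PD-1 over IgG (black points), and the lowest to highest median when 1 of the 6 libraries was left out (grey bars). Lists of keratinocyte, hair follicle, gland and sex-linked genes, with many members at 0, are not drawn; the bar of the IFN-γ response genes runs from −0.925 to −0.163.

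Genes of muscle and skin were high in single libraries. Skeletal muscle genes differed widely within both groups, with Ttn, the giant sarcomere protein, at 21.6, 409 and 207 CPM after anti-PD-1 and at 708, 10.2 and 80.7 CPM after IgG. Their list median was 0.08. Epidermal genes were high in IgG replicate 1, the highest library in 15 of 18 keratinocyte genes. Krt10, a keratin of the upper epidermis, had 28.5 CPM there and at most 0.985 CPM in the other 5 tumors, and Lor, the loricrin gene of the cornified layer, had 11.3 CPM there and at most 0.189 CPM elsewhere. The list median of −3.77 was 0.62 without that library, and it was −2.55 with 3 genes that were at 0 in all anti-PD-1 tumors set to their bound of 3 counts per library. Hair root genes were present in anti-PD-1 replicate 3, with Tchh, trichohyalin of the hair root sheath, at 17.1 CPM there and at most 0.382 CPM in the other 5 tumors. In IgG replicate 3, the tumor with the highest interferon values, Krt10 was at 0.0540 CPM and Tchh at 0.270 CPM.

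The genes with the smallest unadjusted p among those with no overlap had various functions, interferon genes among them. On the higher side, Aatk (chr11:120007313-120047167), an apoptosis-associated tyrosine kinase, came first, with 28.1, 23.8 and 19.5 CPM after anti-PD-1 and 16, 14.2 and 10.6 CPM after IgG. Its log2 fold change was 0.81 (SE 0.211, 95% interval 0.37 to 1.25, unadjusted p = 0.00107, adjusted p = 1 in edgeR). Ptpru, a receptor tyrosine phosphatase, had 10.2, 13.1 and 10 CPM after anti-PD-1 and 6.23, 7.4 and 6.1 CPM after IgG. A lack of overlap was a condition for choosing these genes, and 624 genes on the higher side and 696 on the lower side were eligible. Lemd2, a protein of the inner nuclear membrane, had 52.6, 53.6 and 31.8 CPM after anti-PD-1 and 30, 30.4 and 24.1 CPM after IgG, so that its lowest anti-PD-1 tumor was close to the IgG tumors. The log2 fold changes of Ptpru and Lemd2 were 0.76 (SE 0.218) and 0.71 (SE 0.219). A further 6 genes had log2 fold changes between 0.50 and 0.79. They were Thoc6 of the THO complex of mRNA export, Ctu2 of tRNA thiolation, Pkdcc, a secreted tyrosine kinase, Myg1, an exonuclease, Rnaseh2c, a subunit of RNase H2, and Cep78, a centrosomal protein.

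On the lower side, Tnfsf10 (chr3:27317028-27342427), which encodes the death ligand TRAIL and is inducible by interferon, had 0.835, 0.809 and 1.87 CPM after anti-PD-1 and 2.44, 5.13 and 3.46 CPM after IgG. Its log2 fold change was −1.65 (SE 0.549, 95% interval −2.79 to −0.50, unadjusted p = 0.00708, adjusted p = 1 in edgeR). Spon1, the matrix protein F-spondin, had 5.11, 3.14 and 7.6 CPM after anti-PD-1 and 13.8, 12.1 and 10.9 CPM after IgG. Cd36, a scavenger receptor that takes up fatty acids, had 8.98, 7.13 and 11.9 CPM after anti-PD-1 and 19.4, 18.1 and 20.7 CPM after IgG. In both genes the IgG tumors were close to each other, and the log2 fold changes were −1.21 (SE 0.413) and −1.05 (SE 0.368). Ano3, of the anoctamin family, had 19.1, 20.6 and 23.1 CPM after anti-PD-1 and 30.5, 29.5 and 29.7 CPM after IgG, and Uevld had 16.5, 18.5 and 20.8 CPM after anti-PD-1 and 26.7, 27.6 and 25.5 CPM after IgG. These were small differences between tight groups, with log2 fold changes of −0.52 (SE 0.177) and −0.51 (SE 0.166). Nudt13 of the Nudix hydrolases and Katnbl1, related to the microtubule-severing katanin, had log2 fold changes of −0.66 (SE 0.193) and −0.57 (SE 0.192). Erap1 and Irf4, given above, also belong to these 10, as does Anxa8 of the annexins, which had 0, 3 and 0 counts after anti-PD-1 and was highest in IgG replicate 1, at 5.11 CPM, so no fold change is given. None of these genes passed the adjusted threshold.

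**Figure D5:**
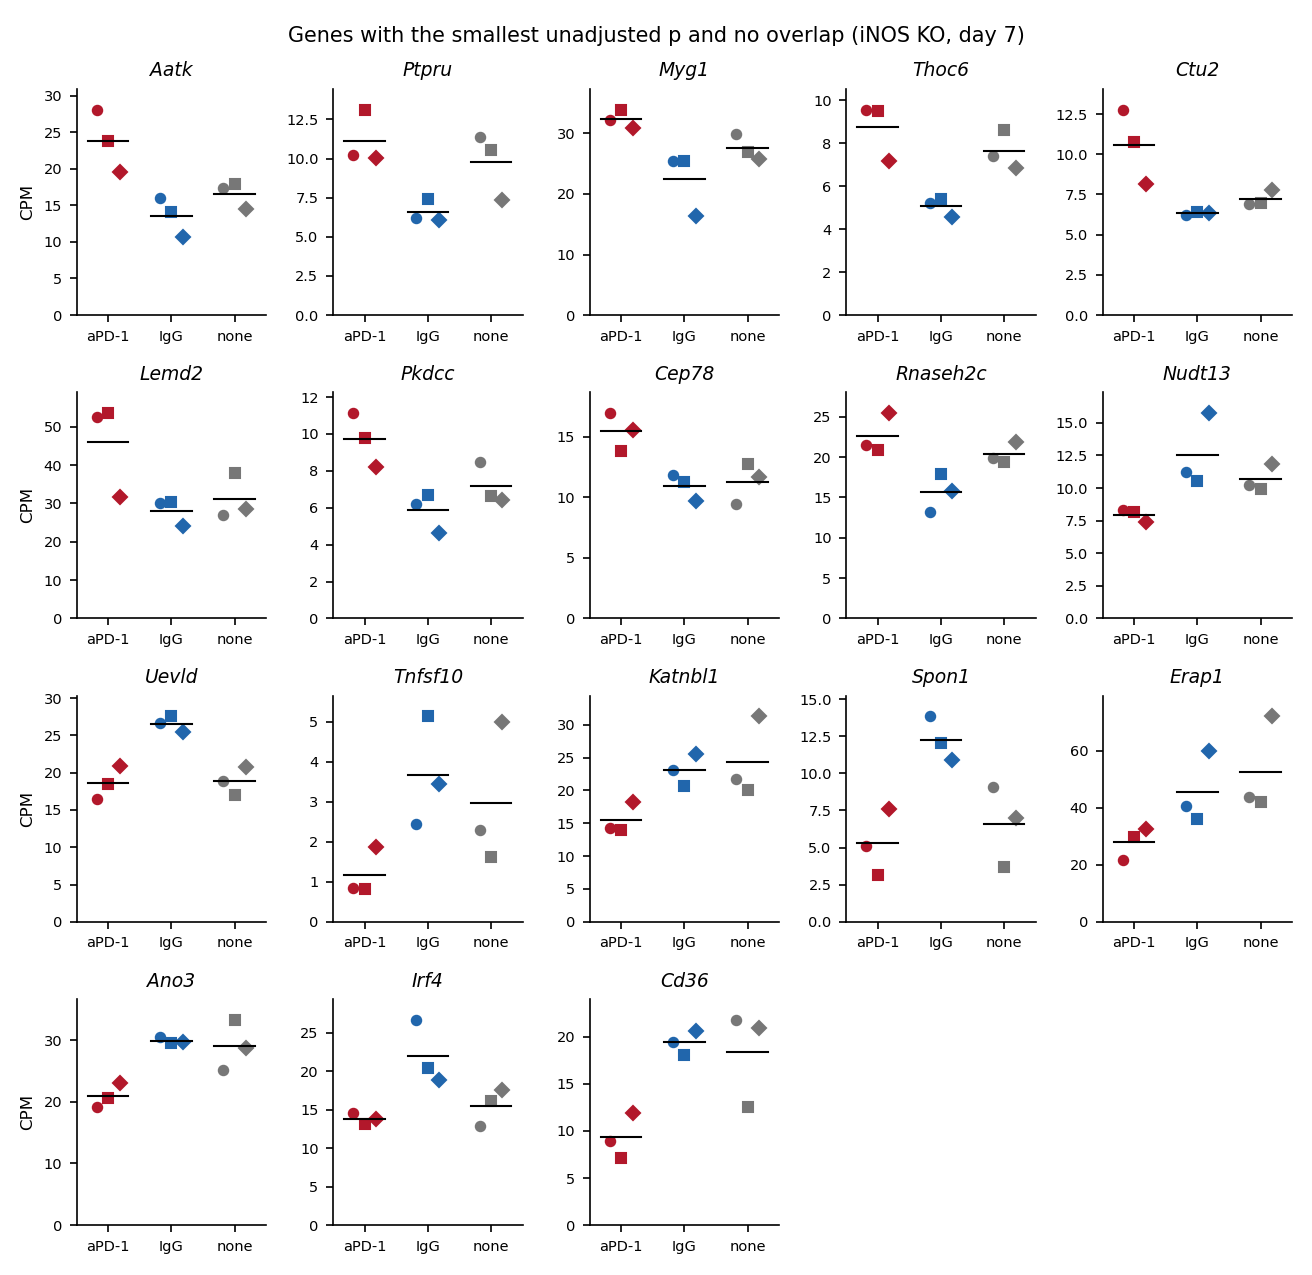
CPM in each of the 9 iNOS KO tumors at day 7 for 18 genes with the smallest unadjusted p and no overlap between anti-PD-1 (aPD-1) and IgG, with 1 marker per tumor, a bar at the group mean, and untreated tumors (none) at the right. The first 9 panels are higher after anti-PD-1 and the last 9 are lower; Aatk runs from 19.5 to 28.1 CPM after anti-PD-1 and from 10.6 to 16 CPM after IgG.

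Untreated iNOS KO tumors place both antibodies. The 3 untreated tumors had 41.7, 25.2 and 104 CPM of Cxcl9, 34.5, 30.2 and 112 CPM of Gbp2 and 52, 41.1 and 104 CPM of Irf1. For Gbp2 every untreated tumor was above every treated one, and for Cxcl9 the lowest untreated tumor lay within the IgG range. Against untreated tumors the median log2 fold change of the IFN-γ response genes was −1.84 for anti-PD-1 and −1.12 for IgG, while genes with at least 1 CPM had medians of 0.09 and 0.07. Cd274 was at 33, 30.1 and 64.8 CPM untreated, with a log2 fold change of −1.38 for anti-PD-1 and −1.18 for IgG (adjusted p = 0.068 and 0.085 in edgeR). These comparisons share the untreated tumors, of which replicate 4 also had 774 CPM of Tchh, whose part was not tested. edgeR called 13 genes for anti-PD-1 against untreated (0.0422% of those tested) and 58 for IgG against untreated (0.188%), all of them lower. Ifi47, an IFN-γ-inducible GTPase, had 6.58, 6.44 and 7.67 CPM after anti-PD-1, 9.05, 7.75 and 17.3 CPM after IgG and 38.2, 24.7 and 69.3 CPM untreated. Its untreated values were above all treated ones, and Psmb9 and Psme2, of the immunoproteasome and its activator, were called as well. The IgG calls held 10 ribosomal protein genes or gene copies, such as Rps12 and Rps20, and without the 3 libraries rich in sensory receptor counts the calls were 7 for anti-PD-1 and 32 for IgG. With the sensory receptor level as a covariate they were 2 and 0. The anti-PD-1 calls numbered 1 with the replicate block and 0 without anti-PD-1 replicate 1, and the IgG calls 2 without IgG replicate 2, while without untreated replicate 4 they numbered 170 and 296.

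The anti-PD-1 effect was then compared with that in WT tumors. In the test of the difference, knockout minus WT, 0 of 30837 genes had an adjusted p under 0.05 (smallest 0.67), and at an unadjusted p under 0.05 in edgeR the difference was above 0 in 300 genes (0.973%) and below 0 in 1987 (6.44%). DESeq2's Wald test called 19 genes. The median difference was −0.47 over all genes and 0.13 over genes with at least 1 CPM, and WT anti-PD-1 replicates 3 and 4 are 2 of the libraries rich in sensory receptor counts. Without the 3 libraries of that kind, it was above 0 in 106 and below 0 in 148 genes at that unadjusted p. The median difference of the IFN-γ response genes was −0.88, that of the T cell genes −1.65 and that of the cytotoxic and NK genes −1.96. In the last 2 lists only 4 and 3 genes had a mean of at least 1 CPM. Low medians were not particular to these lists, with −1.63 for B cell, −2.73 for neutrophil and −6.73 for keratinocyte genes. For MHC class II, type I interferon effector and leukocyte genes the median difference was 0.27, 0.02 and 0.22. The medians of these last lists were also below 0 in WT tumors, at −0.95, −0.28 and −0.81. Cxcl9 had 35.6, 11.2 and 7.46 CPM in WT tumors after anti-PD-1 and 9.44, 6.17 and 14.8 CPM after IgG, a log2 fold change of 0.85 in WT beside −1.77 in knockout tumors. The difference was −2.62 (SE 0.824, unadjusted p = 0.00475, adjusted p = 0.67 in edgeR), and in WT tumors the groups overlapped. For Klrk1 the difference was −2.57 (SE 0.935) and for Cd8a −2.94 (SE 1.34), with the same adjusted p. In WT tumors Klrk1 had 2.98, 6.30 and 4.01 CPM after anti-PD-1 and 1.39, 1.09 and 4.62 CPM after IgG. Cd8a had 1.11, 5.77 and 2.87 CPM against 2.99, 1.52 and 0.629 CPM. Both genes overlapped there and were highest in WT anti-PD-1 replicate 3, and the part of its sensory receptor counts in this was not tested. For H2-DMa both genotypes had values below 0, with log2 fold changes of −1.19 in WT and −1.01 in knockout tumors and a difference of 0.18 (SE 0.586). In Irf1 the difference was −0.78 (SE 0.456).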

How the data were processed

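Whole-tumor RNA of 48 samples was sequenced as strand-specific paired-end libraries. The authors trimmed adapters, used STAR against mm10 and RSEM with GENCODE vM21 to obtain a value per gene, and deposited whole-number counts for 55450 genes without normalization. The file name refers to another counting program, and the values do not show which was used. The 18 day 7 libraries were fitted together in edgeR 4.0.16 (R 4.3.3) with 1 coefficient for each of 6 groups, TMM normalization, filterByExpr at a minimum count of 10, the quasi-likelihood F-test and Benjamini-Hochberg adjustment over 30837 genes (threshold 0.05, 12 residual degrees of freedom). CPM use TMM library sizes, are not divided by gene length and were compared between libraries only. Intervals are at 95% and, with SEs, come from the F statistic. DESeq2 1.42.0 was an alternative.

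The 33 gene lists and the tests were chosen with earlier results of these data known, and the hair follicle list after the data were seen. Lists were described by counts and medians, with no test. Named genes are Nos2, genes the study's text names, the 10 genes per direction with the smallest unadjusted p among those with at least 1 CPM in the higher group and no overlap, and, per list, abundant members and those with an unadjusted p under 0.05 without overlap. Other list members were named after their values were seen. Some genes that the rule selects are not reported here. The replicate numbers were not taken as pairs, since the labels do not say that they pair the samples. Deviations of same-numbered libraries from their group means had correlations of −0.346, −0.402 and 0.102. With 3 libraries per group these cannot decide whether the numbers pair the samples. The fit was also run on counts simulated around a common mean per gene, with known changes added or with none. Those counts held no outlying tumors, mixed tissue or libraries rich in sensory receptor counts. They cannot show how the fit handles these. p-values measure the spread between single tumors within groups of 3 mice, pooled over the 6 groups of the fit, WT and untreated tumors included.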

Additional observations from a re-analysis of the deposited data

How the results depend on the processing

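The comparison of anti-PD-1 with IgG had 0 calls at an adjusted p under 0.05 in 13 of 15 alternatives, 78 with no filter on low counts and 22 by DESeq2's Wald test. At an unadjusted p under 0.05 the 599 genes numbered 395 when IgG replicate 3 was left out, and 415 higher and 585 lower when anti-PD-1 replicate 3 was. They were 1588 with no filter (469 higher and 1119 lower) and 1533 with a sensory receptor covariate (845 higher and 688 lower). The test of the difference from WT gave 270 calls with no filter and 19 by the Wald test. Against untreated tumors, the 13 calls for anti-PD-1 became 29 with DESeq2 size factors, 1454 with no filter, 27 in a robust fit, 8 with only the groups compared, 2 with a sensory receptor covariate, 7 without the 3 libraries rich in those counts and 741 by the Wald test. Leaving out 1 library gave between 0 (anti-PD-1 replicate 1) and 170 calls (untreated replicate 4). The 58 calls for IgG became 1363 with no filter, 104 at a minimum count of 50, 89 in the robust fit, 3 with only the groups compared, 0 with the covariate, 32 without the 3 libraries and 710 by the Wald test, and ran from 2 without IgG replicate 2 to 296 without untreated replicate 4. The causes were not tested. The labels do not say whether replicate numbers pair the samples. With the replicate as a block, anti-PD-1 against IgG kept 0 calls with 445 genes at an unadjusted p under 0.05, and anti-PD-1 against untreated had 1 call.

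With 1 library left out, list medians ran from −0.925 to −0.163 for IFN-γ response genes, from −0.502 to −0.0466 for MHC class I, from −1.11 to −0.531 for T cells and from −1.18 to −0.826 for cytotoxic and NK genes, which had −1.10 at a minimum count of 50. In 3 genes the direction changed: Irf1 ran from −0.499 to 0.0455, Irf3 from −0.102 to 0.0652 and B2m from −0.983 to 0.00596. The other 54 of the 57 genes followed through the alternatives kept 1 direction in every one. Of these 57 genes 9 passed the threshold, each only in the fit with no filter on low counts. The skin and hair root genes and Anxa8 were not among the 57. Of these, Tchh, Krt10, Dsp, Lor, Krt5 and Anxa8 passed with no filter, and Krt25 did so there and in DESeq2's Wald test. The median SE of a log2 fold change was 0.229 over genes with at least 1 CPM.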
